A study of Mus musculus with 12 samples.

Results

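The 29 genes described here encode the enzymes that build cholesterol and long-chain fatty acids, the regulators that set their transcription and 1 sterol carrier. They were listed by name, and each was read through the probe set that carries its symbol alone and has the highest mean over all arrays. Of the 29, 28 were measured, among 19938 genes that had at least 1 probe set to themselves, and Acat2, whose product makes acetoacetyl-CoA, was not analysed here. Total RNA of collagenase-isolated pancreatic islets was hybridised to Affymetrix arrays in 4 groups of adult female mice of the Prlr strain on a 129Sv background. These were pregnant Prlr-/- mice at day 9.5 of gestation (P9.5), pregnant Prlr+/+ mice at the same day, non-pregnant (NP) Prlr-/- mice and NP Prlr+/+ mice, with 3 biological replicates each and 12 arrays in all. Prlr encodes the prolactin receptor, which binds prolactin and placental lactogen, and Prlr-/- mice lack it in every tissue. The females without the receptor are sterile, so a progesterone pellet was given to those that were pregnant, which the methods describe for this genotype only. At P9.5 the effects of genotype and pellet cannot be told apart. Nor can those of pregnancy and pellet between P9.5 and NP Prlr-/- islets. In any difference between genotypes in the change with pregnancy, genotype and pellet cannot be told apart either. Whole islets hold several cell types, and in such samples fewer cells of a type and less RNA per cell cannot be told apart.

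Cholesterol is made from acetyl-CoA in a single chain of reactions. The mevalonate steps make isoprenoid units, which are joined to squalene, closed to lanosterol and trimmed to cholesterol. Most of these enzymes are induced when sterols in the endoplasmic reticulum run low: the transcription factor SREBP2, made by Srebf2, is then carried to the Golgi by SCAP and released, while INSIG proteins hold SCAP back when sterols are plentiful. SREBP1, made by Srebf1, acts in the same way mainly on fatty acid synthesis. Beta cells use these pathways for membranes and secretory granules, and both an excess and a lack of cholesterol are known to disturb insulin secretion.

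The promoters of 22 of the measured genes were found in RefSeq (GRCm38.p6), from 250 bases before to 50 bases after the annotated start. SREBP factors are known to act beside NF-Y, which binds the CCAAT box, and Sp1, which binds the GC box, so these short motifs were searched on both strands. The 22 genes had 28 promoter regions, and a gene was counted if any of its regions held the motif. CCAAT was present in 14 of 14 genes of sterol synthesis enzymes, against 41.1% of 27025 genes. It was present in 2 of 4 genes of fatty acid synthesis enzymes and in 3 of 4 of regulators. GGGCGG was present in 13 of the 14 sterol enzyme genes, against 38.2% of all genes. The sterol regulatory element in the form TCACNCCAC was found in Hmgcs1 alone, against 1.44% of all genes. Genes with little change on the arrays, such as Mvk, Mvd and Tm7sf2, also held both the CCAAT and the GC box. A match describes the letters and shows no binding. The stretches just before the start of 5 enzymes called in both genotypes below are printed 5′ to 3′ in the sense of the gene, with CCAAT, its reverse complement ATTGG and, in Hmgcs1, the sterol regulatory element in capitals. They lie at chr13:119690201-119690350 on the plus strand for Hmgcs1, chr13:8885486-8885605 on the plus strand for Idi1, chr10:76531485-76531604 on the plus strand for Lss, chr5:4104698-4104817 on the minus strand for Cyp51 and chr8:64733579-64733698 on the minus strand for Msmo1.
Hmgcs1: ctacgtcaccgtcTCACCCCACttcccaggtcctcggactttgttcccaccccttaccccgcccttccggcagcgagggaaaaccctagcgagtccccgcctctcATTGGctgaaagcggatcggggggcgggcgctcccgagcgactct
Idi1: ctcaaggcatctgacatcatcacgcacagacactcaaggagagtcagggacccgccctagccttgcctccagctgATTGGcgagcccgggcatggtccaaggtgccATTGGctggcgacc
Lss: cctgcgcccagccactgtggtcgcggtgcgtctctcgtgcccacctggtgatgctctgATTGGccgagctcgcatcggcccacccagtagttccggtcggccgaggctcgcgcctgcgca
Cyp51: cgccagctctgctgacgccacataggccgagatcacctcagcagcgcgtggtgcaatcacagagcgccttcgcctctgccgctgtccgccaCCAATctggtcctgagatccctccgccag
Msmo1: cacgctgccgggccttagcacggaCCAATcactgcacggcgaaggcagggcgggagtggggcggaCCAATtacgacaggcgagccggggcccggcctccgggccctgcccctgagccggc

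The sterol regulatory element of Hmgcs1 began 137 bases before the start and the box shown there 45 bases before it, while its other boxes lay 237 and 176 bases before and 10 bases after the start. The 2 boxes of Idi1 began 45 and 14 bases before the start. Lss had 1 box at 62 bases and Cyp51 1 box at 29 bases before the start. In Msmo1 the 2 boxes shown began at 96 and 55 bases, and a further box lay at 160 bases, outside the stretch printed.

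The deposited values are log2 expression values from robust multichip analysis, rounded to steps of 0.1. Differences were tested with limma in 1 model with the 4 group means, fitted to all 35511 probe sets, and a call required a fold change of 1.5 or more (0.585 on the log2 scale) and a Benjamini-Hochberg adjusted p over all probe sets under 0.05. Every adjusted p below is from this fit. Over all probe sets, the correlation was 0.972 to 0.988 between arrays of 1 stage and 0.931 to 0.969 between arrays of different stages. Of the transcripts that define beta cells, Ins2 was at 10.6 to 11 and Iapp at 12.3 to 12.6 in all arrays. In Prlr+/+ P9.5 replicate 2, Xist, which is expressed from the inactive X chromosome of females, was at 3.8, against 10 to 10.7 in the other 11 arrays, so the count of calls in Prlr+/+ mice is also given without that array, with the calls it changed.

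At P9.5, 9 of the 17 measured sterol synthesis enzymes were higher than in NP islets in Prlr-/- mice and 7 in Prlr+/+ mice, with Idi1 the furthest apart in both. Of the 6 fatty acid synthesis enzymes Scd1 alone was called, in Prlr-/- islets, and of the 4 regulators Insig1 alone, also in Prlr-/- islets. In Prlr-/- islets 12 of the 28 genes were higher and 0 lower, where 7.44% of all probe sets were higher and 7.09% lower. In Prlr+/+ islets 8 of the 28 were higher and 0 lower, where 5.73% of all probe sets were higher and 4.21% lower. Of the 19938 genes, 1167 were higher and 437 lower there. Without Prlr+/+ P9.5 replicate 2 the Prlr+/+ comparison had 8 higher and 2 lower. Of these, 7 were among the 8 called with all arrays, Ebp had lost its call, Fdps was called higher, and Srebf1 and Fasn were called lower. By adjusted p alone, 17 were higher and 1 lower in Prlr-/- islets (15.6% and 17.7% of all probe sets), and 13 higher and 4 lower in Prlr+/+ islets (11.5% and 10.3%). Pregnant and NP arrays did not overlap for 18 genes that were higher and 3 that were lower in Prlr-/- islets (19.4% and 22.4% of all probe sets), and for 13 that were higher and 4 that were lower in Prlr+/+ islets (15.0% and 17.3%). The 7 genes called higher in both genotypes were Hmgcs1, Idi1, Lss, Cyp51, Msmo1, Ebp and Stard4. Fdps, Fdft1, Sc5d, Insig1 and Scd1 were called in Prlr-/- islets and Sqle in Prlr+/+ islets, and the tests of the difference between genotypes are given further on.

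**Figure D1:**
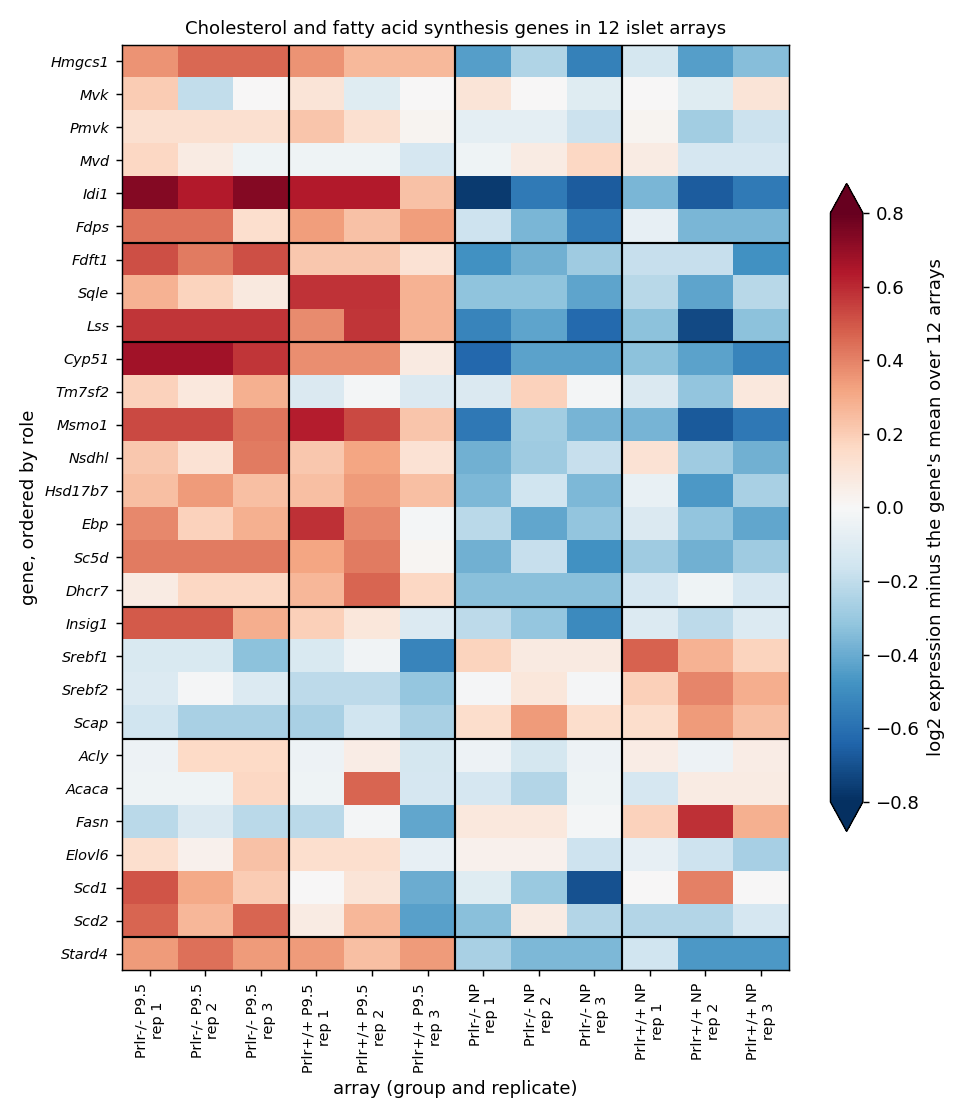
Heat map of the 28 measured genes (rows, ordered by role) in the 12 arrays (columns, 3 per group). Colour shows log2 expression minus the mean of the gene over the 12 arrays. The sterol enzymes other than Mvk, Pmvk, Mvd and Tm7sf2 are mostly red in the 6 pregnant arrays, while Srebf1, Srebf2, Scap and Fasn are mostly blue there.

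Among the 17 sterol synthesis enzymes the median log2 fold change with pregnancy was 0.60 in Prlr-/- islets and 0.57 in Prlr+/+ islets, beside -0.07 over all probe sets in each genotype. Of the 17, 15 had a change above 0 in both genotypes, and Mvk and Mvd had a change of 0.00 in both. Their mean expression per array was 7.82, 7.76 and 7.78 in Prlr-/- P9.5 islets, against 7.12, 7.21 and 7.12 in Prlr-/- NP islets. It was 7.77, 7.77 and 7.58 in Prlr+/+ P9.5 islets, against 7.31, 7.09 and 7.16 in Prlr+/+ NP islets. All 6 pregnant arrays lay above all 6 NP arrays.

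Of the 6 mevalonate enzymes, Hmgcs1 and Idi1 were higher in both genotypes and Fdps in Prlr-/- islets, and 3 were not called. Hmgcs1, the synthase that makes HMG-CoA, was at 8.3, 8.4 and 8.4 in Prlr-/- P9.5 islets, against 7.5, 7.7 and 7.4 in Prlr-/- NP islets. In Prlr+/+ islets it was at 8.3, 8.2 and 8.2 at P9.5, against 7.8, 7.5 and 7.6 in NP mice. The groups did not overlap in either genotype, and the log2 fold change was 0.83 (SE 0.106, adjusted p = 2.77e-04) in Prlr-/- islets and 0.60 (SE 0.106, adjusted p = 0.00275) in Prlr+/+ islets. The value in Prlr+/+ islets lies just past the fold change minimum, within the rounding step of the data, and the call was lost without Prlr+/+ NP replicate 2 or 3 or P9.5 replicate 1.

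Idi1, the isomerase that makes dimethylallyl diphosphate, had the highest fold change of the 28 genes in both genotypes. It was at 7.6, 7.5 and 7.6 in Prlr-/- P9.5 islets, against 6.1, 6.3 and 6.2 in Prlr-/- NP islets. Prlr+/+ islets had it at 7.5, 7.5 and 7.1 at P9.5, against 6.5, 6.2 and 6.3 in NP mice. The 2.58-fold difference in Prlr-/- islets (log2 1.37, SE 0.125, adjusted p = 8.51e-05) and the 2.05-fold difference in Prlr+/+ islets (log2 1.03, SE 0.125, adjusted p = 5.29e-04) were larger than the spread of the arrays. A second, separate probe set for Idi1 had log2 fold changes of 1.43 in Prlr-/- and 1.07 in Prlr+/+ islets and was called in both.

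Fdps, which makes farnesyl diphosphate, the branch point to sterols and to protein prenylation, was at 8.0, 8.0 and 7.7 in Prlr-/- P9.5 islets, against 7.4, 7.2 and 7.0 in Prlr-/- NP islets. In Prlr+/+ islets it was at 7.9, 7.8 and 7.9 at P9.5, against 7.5, 7.2 and 7.2 in NP mice. The groups did not overlap. The log2 fold change was 0.70 (adjusted p = 0.00229) in Prlr-/- islets, and 0.57 (adjusted p = 0.0102) in Prlr+/+ islets, which is just short of the fold change minimum. The kinases of mevalonate and phosphomevalonate, Mvk and Pmvk, and the decarboxylase Mvd were not called. Pmvk had log2 fold changes of 0.23 in Prlr-/- and 0.27 in Prlr+/+ islets (adjusted p = 0.0829 and 0.07), and Mvk and Mvd had 95% confidence intervals of -0.25 to 0.25 and -0.21 to 0.21 in either genotype.

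The 3 enzymes from farnesyl diphosphate to lanosterol were higher in pregnancy by adjusted p in both genotypes. Fdft1, squalene synthase, was at 8.5, 8.4 and 8.5 in Prlr-/- P9.5 islets, against 7.5, 7.6 and 7.7 in Prlr-/- NP islets. It was at 8.2, 8.2 and 8.1 in Prlr+/+ P9.5 islets, against 7.8, 7.8 and 7.5 in Prlr+/+ NP islets. Neither pair of groups overlapped, and the log2 fold change was 0.87 (SE 0.103, adjusted p = 1.86e-04) in Prlr-/- islets and 0.47 (SE 0.103, adjusted p = 0.00808) in Prlr+/+ islets, and only the value in Prlr-/- islets reached the fold change minimum. A second Fdft1 probe set gave 0.60 (adjusted p = 0.0046) in Prlr-/- and 0.20 (adjusted p = 0.286) in Prlr+/+ islets.

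Sqle, squalene epoxidase, a rate-limiting step of the pathway, was at 9.0, 8.9 and 8.8 in Prlr-/- P9.5 islets, against 8.4, 8.4 and 8.3 in Prlr-/- NP islets. It was at 9.3, 9.3 and 9.0 in Prlr+/+ P9.5 islets, against 8.5, 8.3 and 8.5 in Prlr+/+ NP islets. Pregnant and NP arrays were apart in both genotypes. The log2 fold change was 0.53 (adjusted p = 0.00358) in Prlr-/- islets, short of the fold change minimum, and 0.77 (adjusted p = 8.93e-04) in Prlr+/+ islets. Lss, which closes the ring to lanosterol, was at 8.2 in each of the 3 Prlr-/- P9.5 arrays, against 7.1, 7.2 and 7.0 in Prlr-/- NP islets. It was at 8.0, 8.2 and 7.9 in Prlr+/+ P9.5 islets, against 7.3, 6.9 and 7.3 in Prlr+/+ NP islets. Lss was thus apart in all pregnant arrays, with log2 fold changes of 1.10 (adjusted p = 1.52e-04) in Prlr-/- and 0.87 (adjusted p = 9.20e-04) in Prlr+/+ islets.

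**Figure D2:**
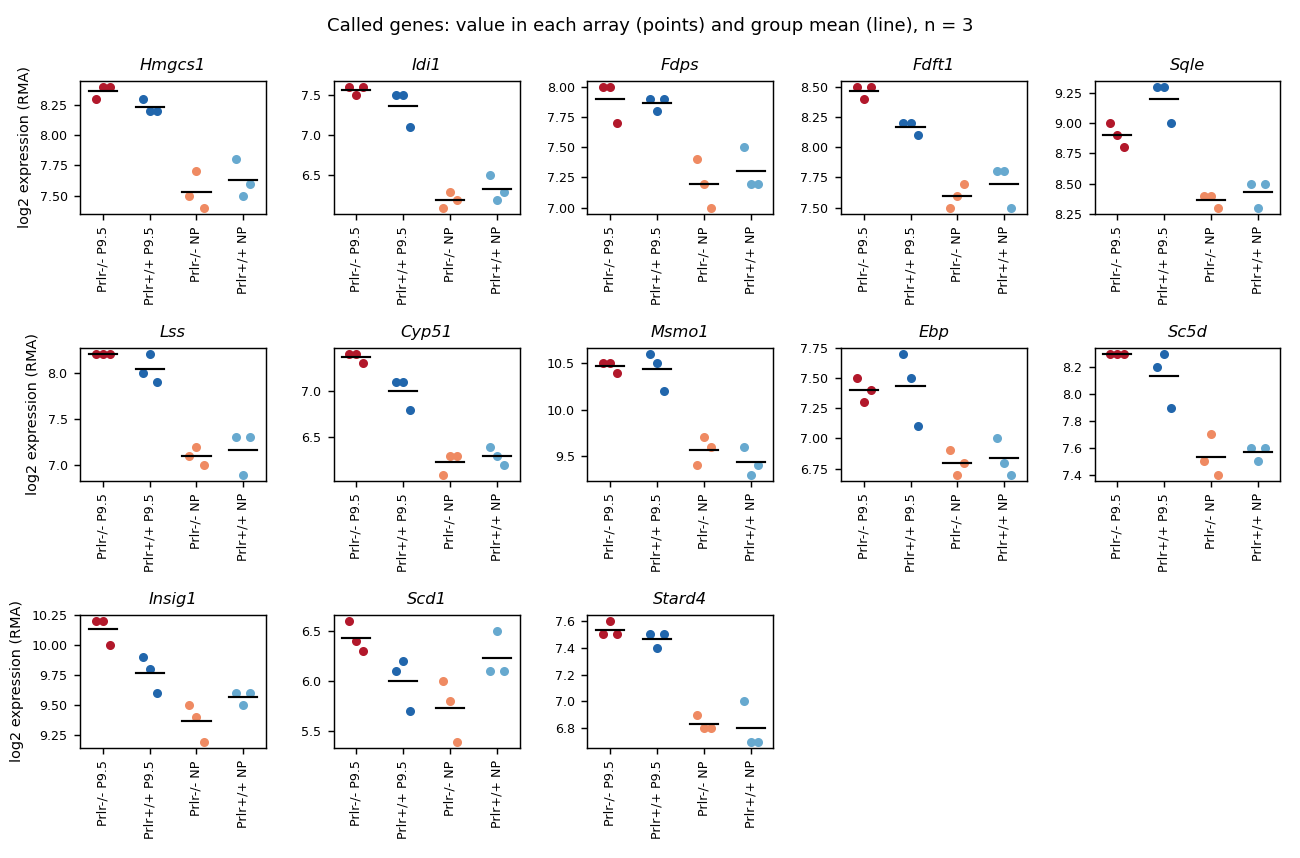
Log2 expression (vertical axes, 1 scale per gene) of the 13 genes called in at least 1 comparison, with each array as a point and the mean of its group (n = 3) as a line. For 12 of the 13 genes, Scd1 being the exception, the 6 pregnant arrays lie at or above the highest NP array.

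Of the 8 enzymes from lanosterol to cholesterol, 4 were called in Prlr-/- islets and 3 in Prlr+/+ islets. Cyp51, the lanosterol demethylase, was at 7.4, 7.4 and 7.3 in Prlr-/- P9.5 islets, against 6.1, 6.3 and 6.3 in Prlr-/- NP islets. It was at 7.1, 7.1 and 6.8 in Prlr+/+ P9.5 islets, against 6.4, 6.3 and 6.2 in Prlr+/+ NP islets. No arrays overlapped, and the fold change was 2.19 (log2 1.13, adjusted p = 9.72e-05) in Prlr-/- islets and 1.62 (log2 0.70, adjusted p = 0.00139) in Prlr+/+ islets.

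Msmo1, the sterol C4-methyl oxidase, was at 10.5, 10.5 and 10.4 in Prlr-/- P9.5 islets, against 9.4, 9.7 and 9.6 in Prlr-/- NP islets. Prlr+/+ islets had it at 10.6, 10.5 and 10.2 at P9.5, against 9.6, 9.3 and 9.4 in NP mice. Its log2 fold change was 0.90 (adjusted p = 4.54e-04) in Prlr-/- and 1.00 (adjusted p = 5.92e-04) in Prlr+/+ islets, with no overlap of groups. Ebp, the sterol isomerase, was at 7.5, 7.3 and 7.4 in Prlr-/- P9.5 islets, against 6.9, 6.7 and 6.8 in Prlr-/- NP islets. It was at 7.7, 7.5 and 7.1 in Prlr+/+ P9.5 islets, against 7.0, 6.8 and 6.7 in Prlr+/+ NP islets. The arrays did not overlap, and the log2 fold change was 0.60 in both genotypes (SE 0.144, adjusted p = 0.00884 in Prlr-/- and 0.0127 in Prlr+/+ islets), a value just past the fold change minimum. This call was lost in Prlr-/- islets without NP replicate 2 or P9.5 replicate 1, and in Prlr+/+ islets without NP replicate 2 or 3 or P9.5 replicate 1 or 2. It was also lost in Prlr+/+ islets when the 2 groups compared were fitted alone, and in both genotypes with quantile normalization.

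Sc5d, the lathosterol desaturase, was at 8.3 in each of the 3 Prlr-/- P9.5 arrays, against 7.5, 7.7 and 7.4 in Prlr-/- NP islets. In Prlr+/+ islets it was at 8.2, 8.3 and 7.9 at P9.5, against 7.6, 7.5 and 7.6 in NP mice. The log2 fold change was 0.77 (adjusted p = 6.58e-04) in Prlr-/- islets and 0.57 (adjusted p = 0.00537) in Prlr+/+ islets, just short of the fold change minimum. The other 4 enzymes of this stretch were not called. Hsd17b7 and Nsdhl, which act in removing the C4 methyl groups, had log2 fold changes of 0.57 and 0.53 in Prlr-/- islets (adjusted p = 0.00282 and 0.0113) and of 0.53 and 0.40 in Prlr+/+ islets (adjusted p = 0.0058 and 0.0538). Dhcr7, which makes cholesterol from 7-dehydrocholesterol, had 0.47 in Prlr-/- and 0.40 in Prlr+/+ islets (adjusted p = 0.00326 and 0.0105). Tm7sf2, a sterol C14 reductase, had 0.17 in Prlr-/- and 0.03 in Prlr+/+ islets (adjusted p = 0.294 and 0.862). Stard4, a carrier that moves cholesterol between membranes, was at 7.5, 7.6 and 7.5 in Prlr-/- P9.5 islets, against 6.9, 6.8 and 6.8 in Prlr-/- NP islets. It was at 7.5, 7.4 and 7.5 in Prlr+/+ P9.5 islets, against 7.0, 6.7 and 6.7 in Prlr+/+ NP islets. Its log2 fold change of 0.70 in Prlr-/- (adjusted p = 4.73e-04) and 0.67 in Prlr+/+ islets (adjusted p = 0.00114) came with no overlap of groups.

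**Figure D3:**
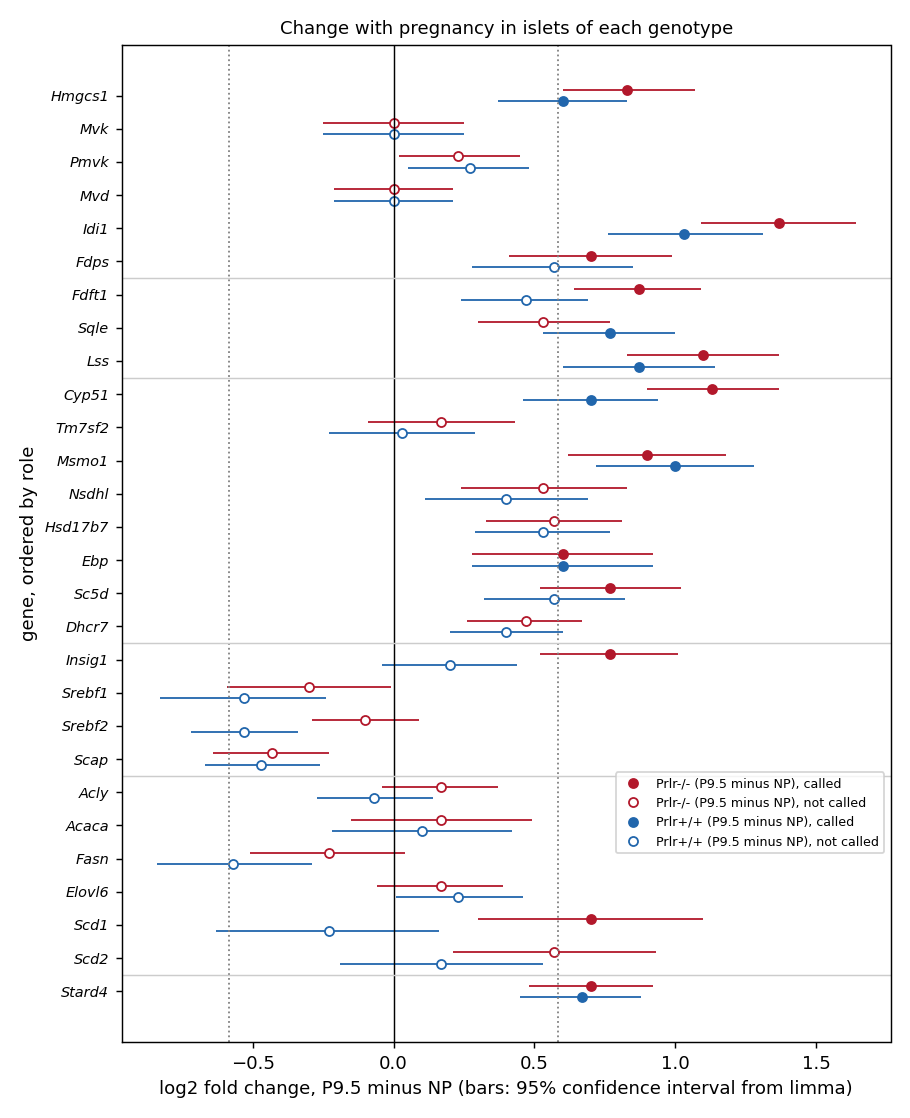
Log2 fold change of P9.5 minus NP islets (horizontal axis) for the 28 genes by role (vertical axis), in Prlr-/- islets (red) and Prlr+/+ islets (blue), with 95% confidence intervals from limma. Filled points were called, open points were not, and dotted lines mark the fold change minimum of 1.5 in each direction. The sterol enzymes lie right of 0 apart from Mvk and Mvd, and Srebf1, Srebf2, Scap and Fasn lie left of 0 in both genotypes.

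The 4 regulators did not move with the enzymes as a group. Insig1, which retains SCAP in the endoplasmic reticulum and is itself a target of SREBP, was at 10.2, 10.2 and 10 in Prlr-/- P9.5 islets, against 9.5, 9.4 and 9.2 in Prlr-/- NP islets. Prlr+/+ islets had it at 9.9, 9.8 and 9.6 at P9.5, against 9.6, 9.5 and 9.6 in NP mice. Groups were apart in Prlr-/- islets and touched at 9.6 in Prlr+/+ islets, with log2 fold changes of 0.77 (SE 0.112, adjusted p = 5.71e-04) in Prlr-/- and 0.20 (SE 0.112, adjusted p = 0.222) in Prlr+/+ islets. Srebf2 was at 8.6, 8.7 and 8.6 in Prlr-/- P9.5 islets, against 8.7, 8.8 and 8.7 in Prlr-/- NP islets. It was at 8.5, 8.5 and 8.4 in Prlr+/+ P9.5 islets, against 8.9, 9.1 and 9.0 in Prlr+/+ NP islets. The log2 fold change of Srebf2 was -0.10 (adjusted p = 0.388) in Prlr-/- islets and -0.53 (adjusted p = 0.00177) in Prlr+/+ islets. Srebf1 had log2 fold changes of -0.30 in Prlr-/- and -0.53 in Prlr+/+ islets (adjusted p = 0.103 and 0.0152), and Scap, the carrier of both SREBP factors, of -0.43 in Prlr-/- and -0.47 in Prlr+/+ islets (adjusted p = 0.0048 and 0.00491). None of these reached the fold change minimum.

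The 6 fatty acid synthesis enzymes had a median log2 fold change of 0.17 in Prlr-/- and 0.02 in Prlr+/+ islets. Scd1, a desaturase that makes monounsaturated fatty acids, was at 6.6, 6.4 and 6.3 in Prlr-/- P9.5 islets, against 6.0, 5.8 and 5.4 in Prlr-/- NP islets. It was at 6.1, 6.2 and 5.7 in Prlr+/+ P9.5 islets, against 6.1, 6.5 and 6.1 in Prlr+/+ NP islets. Pregnant arrays were above NP arrays in Prlr-/- islets alone, with a log2 fold change of 0.70 (SE 0.181, adjusted p = 0.0124) there and of -0.23 (adjusted p = 0.383) in Prlr+/+ islets. Without Prlr-/- NP replicate 3 the log2 fold change in Prlr-/- islets was 0.53, under the fold change minimum.

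Fasn, the fatty acid synthase, was at 7.8, 7.9 and 7.8 in Prlr-/- P9.5 islets, against 8.1, 8.1 and 8.0 in Prlr-/- NP islets. In Prlr+/+ islets it was at 7.8, 8.0 and 7.6 at P9.5, against 8.2, 8.6 and 8.3 in NP mice. All pregnant arrays were below the NP arrays of their genotype, with log2 fold changes of -0.23 (adjusted p = 0.166) in Prlr-/- and -0.57 (adjusted p = 0.00808) in Prlr+/+ islets, neither of them called. In Prlr+/+ islets Fasn was called lower in 5 of 21 alternatives, which were leaving out NP replicate 1, NP replicate 3 or P9.5 replicate 2, quantile normalization and array weights. Scd2, a second desaturase, had log2 fold changes of 0.57 in Prlr-/- and 0.17 in Prlr+/+ islets (adjusted p = 0.0212 and 0.501). Acly, which makes cytosolic acetyl-CoA for both pathways, lay between 11.4 and 11.7 in all 12 arrays, and Elovl6, which elongates palmitate, between 7.7 and 8.2. The 2 probe sets of Acaca, acetyl-CoA carboxylase, disagreed. The brighter had log2 fold changes of 0.17 in Prlr-/- and 0.10 in Prlr+/+ islets (adjusted p = 0.394 and 0.659), and the dimmer of 0.60 in Prlr-/- islets (adjusted p = 0.0123), which was called, and 0.53 in Prlr+/+ islets (adjusted p = 0.0296), which was not.

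Between genotypes, no gene of the 28 was called at either stage. In P9.5 islets, where 0.231% of all probe sets were called in either direction, 7 of the 28 had an unadjusted p under 0.05, beside 5.42% of all probe sets. Fdft1, Cyp51, Tm7sf2, Insig1, Scd1 and Scd2 had log2 fold changes of Prlr-/- over Prlr+/+ islets between 0.27 and 0.43, and Sqle had -0.30. The lowest adjusted p was 0.504, and the 95% confidence intervals of the 17 sterol enzymes lay between -0.54 and 0.60. The arrays of the genotypes did not overlap for 6 of the 28 genes (21.4%), Fdft1, Cyp51, Tm7sf2, Insig1, Srebf2 and Scd1, with the Prlr-/- arrays above, where 3.16% of all probe sets were higher and 2.91% lower in this way.

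In NP islets, 0.101% of all probe sets were called in either direction. An unadjusted p under 0.05 was reached by 4 of the 28 genes, beside 12.3% of all probe sets, each with a log2 fold change of Prlr-/- over Prlr+/+ islets below 0. These were Scd1 (log2 fold change -0.50, adjusted p = 0.293), Fasn (-0.30, adjusted p = 0.35), Srebf2 (-0.27, adjusted p = 0.254) and Dhcr7 (-0.23, adjusted p = 0.335). The arrays of the genotypes did not overlap for the same 4 genes (14.3%), with the Prlr-/- arrays below, where 5.22% of all probe sets were lower in this way. The intervals of the 17 sterol enzymes lay between -0.44 and 0.41.

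Whether the change with pregnancy differed between genotypes was tested by the interaction, which shares its arrays with the comparisons above. The pellet is described for pregnant Prlr-/- mice only, so genotype and pellet cannot be told apart in this test. No gene of the 28 was called, where 0.0788% of all probe sets were, and the lowest adjusted p was 0.271. An unadjusted p under 0.05 was reached by 5 genes, beside 9.85% of all probe sets, each with the more positive change in Prlr-/- islets. The difference in log2 fold change, Prlr-/- minus Prlr+/+, was 0.93 for Scd1 (95% confidence interval 0.37 to 1.49), 0.57 for Insig1 (0.22 to 0.91), 0.43 for Srebf2 (0.17 to 0.70), 0.43 for Cyp51 (0.10 to 0.77) and 0.40 for Fdft1 (0.08 to 0.72). For the other genes called in 1 genotype, the difference was 0.13 for Fdps (-0.27 to 0.54), 0.20 for Sc5d (-0.16 to 0.56) and -0.23 for Sqle (-0.57 to 0.10). The calls in 1 genotype are thus not shown to differ from the other genotype at this number of arrays. Of the 17 sterol enzymes, 11 had the larger change in Prlr-/- islets, 3 in Prlr+/+ islets and 3 the same change. In the lists described below, the difference was above 0 for 14 of 15 genes of sterol handling and 14 of 21 of lipid supply. It was above 0 for 9 of 10 endothelial markers and 8 of 11 proliferation genes. The count above 0 was 5 of 10 for beta cell genes, 5 of 10 for adipocyte and 2 of 5 for ductal markers. It was below 0 for 18 of 19 acinar markers. Over all 35511 probe sets the difference was above 0 for 16050 and below 0 for 17548. No gene of these lists was called in the interaction.

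Of 15 other genes of sterol handling measured, 3 were higher and 1 lower at P9.5 in Prlr-/- islets, and 3 were higher and 2 lower in Prlr+/+ islets. The share that was higher was 20.0% in each genotype, beside 7.44% of all probe sets in Prlr-/- and 5.73% in Prlr+/+ islets. Of all probe sets, 7.09% were lower in Prlr-/- and 4.21% in Prlr+/+ islets. The 15 genes had median log2 fold changes of 0.10 in Prlr-/- and -0.03 in Prlr+/+ islets. Ggps1, which makes geranylgeranyl diphosphate, had log2 fold changes of 0.83 in Prlr-/- and 0.80 in Prlr+/+ islets (adjusted p = 6.58e-04 and 0.00145). Insig2, the second INSIG protein, had 0.67 in Prlr-/- and 0.63 in Prlr+/+ islets (adjusted p = 9.46e-04 and 0.0021), and lost its call without NP replicate 3 in Prlr-/- islets, without NP replicate 2 in Prlr+/+ islets and with quantile normalization in both. Abca1, which exports cholesterol from cells, was at 8.6, 8.6 and 8.8 in Prlr-/- P9.5 islets, against 9.3, 9.4 and 9.1 in Prlr-/- NP islets. It was at 8.2, 8.4 and 8.2 in Prlr+/+ P9.5 islets, against 8.9, 9.5 and 9.6 in Prlr+/+ NP islets. Pregnant arrays were below NP arrays in both genotypes, with log2 fold changes of -0.60 (adjusted p = 0.0169) in Prlr-/- and -1.07 (adjusted p = 0.00141) in Prlr+/+ islets. The Abca1 call in Prlr-/- islets was lost without NP replicate 1 or 2 or P9.5 replicate 1 or 2, and with median centring. Called in 1 genotype were Lipa, the lysosomal lipase that frees cholesterol from its esters (0.63 in Prlr-/- and 0.40 in Prlr+/+ islets), Tmem97, a membrane protein induced when sterols are low (0.33 in Prlr-/- and 0.67 in Prlr+/+ islets), and Scarb1, a receptor for high-density lipoprotein (-0.33 in Prlr-/- and -0.63 in Prlr+/+ islets). The Tmem97 call in Prlr+/+ islets was lost without any 1 of 5 of the 6 arrays compared, NP replicate 1 being the exception, and with quantile normalization. That of Scarb1 was lost without P9.5 replicate 2 and with median centring, and that of Lipa in Prlr-/- islets without NP replicate 3 or P9.5 replicate 1.

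Of 21 measured genes of fatty acid and lipid supply, 1 was higher in pregnant Prlr-/- islets, and 2 were higher and 1 lower in pregnant Prlr+/+ islets. The share that was higher was 4.76% in Prlr-/- and 9.52% in Prlr+/+ islets, beside the same 7.44% and 5.73% of all probe sets. Lower were the same 7.09% and 4.21% of all probe sets. The 21 genes had median log2 fold changes of 0.23 in Prlr-/- and 0.00 in Prlr+/+ islets. Acsl4, which activates arachidonic acid, had log2 fold changes of 0.87 in Prlr-/- and 1.10 in Prlr+/+ islets (adjusted p = 7.78e-04 and 5.36e-04). Acss2, which makes acetyl-CoA from acetate, had 0.30 in Prlr-/- and 0.63 in Prlr+/+ islets (adjusted p = 0.0667 and 0.00337), and its call in Prlr+/+ islets was lost without NP replicate 3. Mlxipl, the glucose-responsive factor ChREBP, had -0.33 in Prlr-/- and -0.77 in Prlr+/+ islets (adjusted p = 0.164 and 0.0102).

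Markers of other cell types and of dividing cells were measured on the same arrays. The mean of 19 acinar markers was 9.97, 9.09 and 8.49 in Prlr-/- P9.5 islets, against 10.80, 9.90 and 10.27 in Prlr-/- NP islets. It was 9.21, 8.91 and 9.99 in Prlr+/+ P9.5 islets, against 9.59, 10.06 and 9.78 in Prlr+/+ NP islets. In Prlr-/- islets 12 of the 19 were lower at P9.5 and 1, Bhlha15, higher, beside 7.09% and 7.44% of all probe sets. The median log2 fold change of the 19 was -1.37 there. In Prlr+/+ islets the median was -0.53 with Bhlha15 alone called, as higher, where 5.73% of all probe sets were higher and 4.21% lower. Of the 5 ductal markers, 1 in each genotype was called lower, Muc1 (log2 fold change -0.90) in Prlr-/- and Krt7 (-0.80) in Prlr+/+ islets, both named after their values were seen, where 7.09% of all probe sets were lower in Prlr-/- and 4.21% in Prlr+/+ islets. The 5 had median log2 fold changes of -0.27 in Prlr-/- and -0.23 in Prlr+/+ islets. The mean of the 5 was 6.02 to 6.16 in Prlr-/- P9.5 islets, against 6.34 to 6.62 in Prlr-/- NP islets. It was 5.96 to 6.02 in Prlr+/+ P9.5 islets, against 6.32 to 6.38 in Prlr+/+ NP islets, so that pregnant and NP arrays did not overlap in either genotype. Prlr+/+ P9.5 replicate 3 had both the highest acinar mean and the lowest sterol enzyme mean of its group, while Prlr-/- P9.5 replicate 1 had both the highest acinar mean and the highest sterol enzyme mean of its group (7.82, against 7.76 and 7.78 in the other 2). Without Prlr+/+ P9.5 replicate 3, 9 genes were called in Prlr+/+ islets, among them all 8 called with it.

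The mean of 11 proliferation genes was 5.95 to 6.55 in Prlr-/- P9.5 and 5.63 to 5.84 in Prlr-/- NP islets, and 5.96 to 6.23 in Prlr+/+ P9.5 and 5.69 to 5.88 in Prlr+/+ NP islets. Of them 3 were called higher in Prlr-/- islets (27.3%, beside 7.44% of all probe sets) and 1 in Prlr+/+ islets (9.09%, beside 5.73%). The part of acinar, ductal and proliferation transcripts in the sterol enzyme changes was not tested. The 10 adipocyte markers had a list mean of 5.24 to 5.54 in all arrays, and Adipoq was at 4.1 to 4.6. In limma 0 of the 10 were called in either genotype, with an unadjusted p under 0.05 for 1 that was higher and 3 that were lower in Prlr-/- islets and for 1 each in Prlr+/+ islets, beside 44.9% of all probe sets in Prlr-/- and 35.9% in Prlr+/+ islets in either direction. The mean of 10 beta cell genes was 10.82 to 10.84 in Prlr-/- P9.5 and 10.64 to 10.85 in Prlr-/- NP islets, and 10.80 to 10.89 in Prlr+/+ P9.5 and 10.81 to 10.91 in Prlr+/+ NP islets. In Prlr-/- islets 1 of the 10, Ucn3, was called higher (log2 fold change 0.60) and 0 lower. In Prlr+/+ islets Ucn3 was called higher (0.60) and 2 were called lower, Nkx6-1 (-0.73, adjusted p = 0.00369) and Mafa (-0.67, adjusted p = 0.00938), all 3 named after their values were seen. Of all probe sets, 5.73% were higher and 4.21% lower in Prlr+/+ islets. The log2 fold changes of Nkx6-1 and Mafa in Prlr-/- islets were -0.37 and -0.30 (adjusted p = 0.0591 and 0.144), and their part in the results was not tested. Of endothelial markers 2 of 10 were called higher in Prlr-/- islets, beside 7.44% of all probe sets, and 2 lower in Prlr+/+ islets, beside 4.21%.

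**Figure D4:**
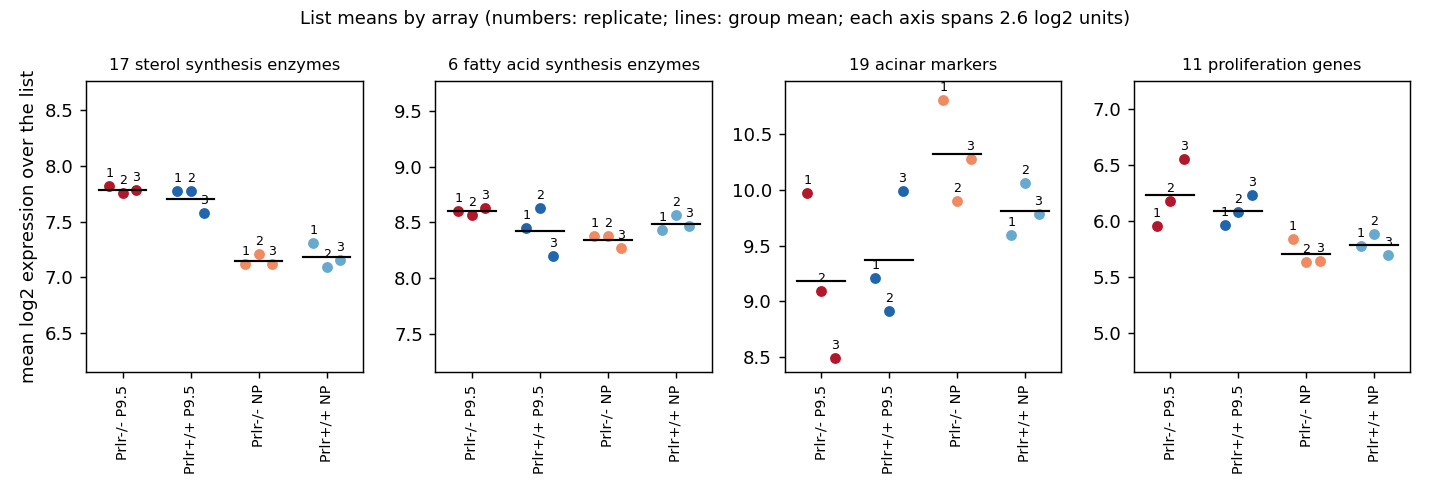
Mean log2 expression per array (vertical axes, each spanning 2.6 units) of 17 sterol synthesis enzymes, 6 fatty acid synthesis enzymes, 19 acinar markers and 11 proliferation genes, with the replicate number at each point and the group mean as a line. The sterol enzyme means of 7.58 to 7.82 in the 6 pregnant arrays lie above those of 7.09 to 7.31 in the 6 NP arrays. The proliferation means of 5.95 to 6.55 in the pregnant arrays also lie above those of 5.63 to 5.88 in the NP arrays. The acinar means of the groups overlap, with median log2 fold changes of -1.37 in Prlr-/- and -0.53 in Prlr+/+ islets.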

How the data were processed

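The authors preprocessed the raw MoGene_1.0_ST arrays by robust multichip analysis in aroma.affymetrix (R), and the deposited table holds 1 log2 value per probe set and array, rounded to 0.1. Background correction and normalization are thus part of every value, and the raw arrays were not used. Of 35511 probe sets, 21789 carry 1 gene symbol. The build of the probe set annotation is not given in the sources used here. The 4 group means were estimated for each probe set in 1 limma 3.58.1 model (lmFit, eBayes; R 4.3.3) without covariates, after a test on simulated data. The contrasts were P9.5 against NP in each genotype, Prlr-/- against Prlr+/+ at each stage, and their interaction. A difference was called at a fold change of at least 1.5 and a Benjamini-Hochberg adjusted p under 0.05 over all probe sets. The number of arrays limits the precision.

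The members and lists were chosen with earlier results of these data known. Array values are given for every called member. Outside that rule, they are also given for Srebf2 and Fasn, which were not called with all arrays, and for Abca1 of a further list. Of 2 further lists of sterol and lipid genes the called members are named. Of the marker lists other than the beta cell genes, at most 2 members each are named. Of the beta cell genes more than 2 are named, among them all that were called with pregnancy. After the group mean of each probe set was subtracted, same-numbered replicates of different groups correlated at -0.11 to 0.23. The correlation was over 0.1 in 7 of 18 pairs, and same-numbered replicates were not treated as pairs. Alternatives were fits of the compared groups alone, a replicate block, leaving out each array, other filters and normalizations, another variance prior, array weights, other fold change minimums and the mean of a gene's probe sets. Promoters were read from RefSeq (GRCm38.p6).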

Additional observations from a re-analysis of the deposited data

How the results depend on the processing

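No log2 fold change of the members and other lipid genes above with an adjusted p under 0.05 changed sign under any alternative run. With no fold change minimum, the adjusted p alone called 17 of the 28 genes in Prlr+/+ islets, of which 13 were higher and 4 lower. With a minimum of 2, 3 genes were called with pregnancy in Prlr-/- islets and 2 in Prlr+/+ islets. Leaving out 1 array at a time gave 11 to 14 calls in Prlr-/- and 6 to 11 in Prlr+/+ islets, and 0 to 0 in the genotype comparisons and the interaction. The replicate number as a block gave 12 calls in Prlr-/- and 8 in Prlr+/+ islets, 0 in the other comparisons, and changed no call. Median centring moved the median of all probe sets in Prlr-/- islets to 0.10, against -0.07 as deposited, and the share of calls that were higher to 76.2%, against 51.2%. In Prlr+/+ islets that share was 70.2% with centring, against 57.7%. Of the 28 genes, 17 were then called higher in Prlr-/- and 11 in Prlr+/+ islets, among them all called before. Quantile normalization gave 12 higher and 1 lower, Scap, in Prlr-/- islets, where Ebp lost its call and Hsd17b7 gained one, and 6 higher and 3 lower in Prlr+/+ islets, where Hmgcs1 and Ebp lost their calls and Srebf1, Srebf2 and Fasn were called lower. The causes were not tested. Fitting the 2 groups compared alone gave 12 calls in Prlr-/- islets and 7 in Prlr+/+ islets, where Ebp lost its call. It gave 0 calls between genotypes at either stage. The interaction has no fit of 2 groups alone, so that was not run.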
